A study of Rattus norvegicus with 24 samples.

Results

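*RT1-CE9* to *RT1-CE16* are class Ib genes of the rat major histocompatibility complex (MHC, called RT1), and their signal was compared between skin explants cultured with syngeneic and with allogeneic lymphocytes. The members were all non-control probes named RT1-CE with a number from 9 to 16 in the scanner files or in the probe list of the study, with *RT1-Cl* counted as *RT1-CE16*. This gave 8 of 7249 genes and 34 of 8453 probes of 60 bases. There were 5 probes for *RT1-CE9*, 1 for *RT1-CE10*, 5 for *RT1-CE11*, 6 for *RT1-CE12*, 5 each for *RT1-CE13*, *RT1-CE14* and *RT1-CE15*, and 2 for *RT1-CE16*. Each of the 34 probes was detected well above background in both groups, on 24 of 24 arrays.

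MHC class I molecules bind peptides from inside the cell and display them at the surface together with beta-2 microglobulin. Class Ia molecules, the RT1-A products in the rat, present such peptides to CD8+ T cells, whereas class Ib molecules are as a rule less polymorphic, and some of them are read by receptors of natural killer (NK) cells. The RT1-CE genes lie in the class I region known as RT1-C/E/M, which differs in gene content between rat strains and whose genes resemble each other closely.

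The explants came from 12 male BN rats (MHC haplotype RT1n) aged 15 weeks. In the syngeneic group the co-culture of 3 days was with lymphocytes of BN origin, and in the allogeneic group with pre-stimulated lymphocytes of PVG origin (haplotype RT1c). The lymphocytes of either group had been through a mixed lymphocyte reaction (MLR) of 7 days, so the control explants had met cells from an MLR as well. For each rat, RNA of a syngeneic and an allogeneic explant shared an array in different dyes (Cy3 and Cy5), and the dyes were swapped on a second array, so that 24 arrays stand for n = 12 rats. A fall of signal in such bulk tissue can come, among other sources, from fewer cells of a type or from less RNA per cell. These cannot be told apart. The added lymphocytes also differed in strain between the groups, and the study based its MHC probes on the BN sequence. How well RNA of PVG cells bound these probes was not tested. The explants were frozen after a wash, and how many lymphocytes remained in them is not known here.

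One array of rat 10, with the allogeneic sample in Cy5, stood apart from the rest. Its median spot intensity was 6668 in Cy3 and 25642 in Cy5, against at most 216 and 415 on the other 23 arrays. Rat 8 stood apart in another way, since the median Pearson correlation of its log2 ratios with those of the other rats, over all probes, was 0.17, against 0.37 to 0.69 for the others. Results that rest on either animal are given with and without it. Skin could hardly be checked by its markers, because of 9 listed keratinocyte genes only *Tp63* was measured (log2-fold change 0.30, adjusted p = 0.358 by limma).

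The probe sequences are shown first, because these genes are so alike that a probe may take up RNA of more than one of them. Capitals mark a run of 17 bases at the 3′ end which 3 probes on the array shared, those of *RT1-CE9*, *RT1-CE11* and *RT1-Cl*. A probe listed for *RT1-CE12* came close to this end but did not hold the run, and its signal did not change as theirs did.

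RT1-CE9 probe 1: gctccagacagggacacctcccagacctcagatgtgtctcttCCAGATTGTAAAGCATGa
RT1-CE11 probe 2: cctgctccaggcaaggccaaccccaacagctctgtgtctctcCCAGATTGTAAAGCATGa
RT1-Cl probe: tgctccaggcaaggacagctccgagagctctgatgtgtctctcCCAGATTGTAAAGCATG
RT1-CE12 probe 2: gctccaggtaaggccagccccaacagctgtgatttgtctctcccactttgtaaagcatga

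The single probe of *RT1-CE10* had a sequence of its own among the members. It shared at most 10 consecutive bases with any of the other 33 probes, and its longest run shared with another gene on the array, shown in capitals, had 22 bases in common with a probe of the class Ia gene *RT1-A3*.

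RT1-CE10: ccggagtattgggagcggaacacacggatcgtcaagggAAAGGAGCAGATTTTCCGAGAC

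The probes listed for *RT1-CE13* are shown because they fell into 2 sets that moved differently. Capitals mark the 40 bases that probes 1 and 2 shared, and the 40 other bases that probes 3 and 4 shared.

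RT1-CE13 probe 1: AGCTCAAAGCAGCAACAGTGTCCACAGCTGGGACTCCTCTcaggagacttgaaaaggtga
RT1-CE13 probe 2: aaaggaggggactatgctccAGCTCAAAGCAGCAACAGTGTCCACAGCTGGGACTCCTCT
RT1-CE13 probe 3: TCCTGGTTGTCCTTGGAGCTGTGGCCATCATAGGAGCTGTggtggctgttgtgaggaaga
RT1-CE13 probe 4: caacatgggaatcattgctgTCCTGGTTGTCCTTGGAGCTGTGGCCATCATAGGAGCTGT

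The probes of *RT1-CE14*, *RT1-CE15* and *RT1-CE16* shown next show how far these genes overlap in sequence. Capitals mark the 16 bases common to the first 2 probes, and in the third the 14 bases it shared with the second. The 5 probes of *RT1-CE14* shared 56 to 59 consecutive bases with each other, as did the 5 probes of *RT1-CE15*, so that the probes of either gene are shifted copies of 1 target and no independent measurements.

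RT1-CE14 probe 5: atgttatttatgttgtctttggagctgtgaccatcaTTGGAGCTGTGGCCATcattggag
RT1-CE15 probe 1: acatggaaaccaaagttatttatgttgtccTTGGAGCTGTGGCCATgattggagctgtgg
RT1-CE16 probe: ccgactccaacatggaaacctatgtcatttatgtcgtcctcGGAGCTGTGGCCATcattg

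The files place 4 of the 34 probes on the rat build rn3 and mark the other 30, custom designs for this array, as unmapped. The *RT1-CE10* probe lies at chr20:3469272-3469331 and the *RT1-Cl* probe at chr20:3510408-3510457, in the MHC region of chromosome 20. The *RT1-CE16* probe, at chr20_random:37900-37959, and a catalog probe of *RT1-CE12*, at chr20_random:149692-149930, were on unplaced sequence of that chromosome. Exon and intron positions of that build were not analysed here.

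Some names are uncertain. The 5 custom probes listed for *RT1-CE12* carry a transcript that RefSeq now gives to *RT1-CE13*, and the 5 listed for *RT1-CE13* carry one that RefSeq gives to *RT1-O1*, another class Ib gene. The *RT1-Cl* probe lists transcripts of *RT1-CE5*, *RT1-A1* and *RT1-A2* and none of *RT1-CE16*. RefSeq has *RT1-CE9* as a pseudogene (*RT1-CE9-ps1*) and *RT1-CE14* as an RNA of miscellaneous type. Gene names here are those of the study's list.

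*RT1-CE10*, a protein-coding class Ib gene in RefSeq, was lower in the allogeneic explant of each of the 12 rats, and it changed far more than the other members. Its normalized intensity, on the log2 scale, was lowest at 10.46, had a median of 10.96 and was highest at 13.30 in the syngeneic explants, against 8.97, 9.11 and 12.50 in the allogeneic ones. The groups overlapped through rat 10 alone, which gave the highest value in both. Without rat 10 the allogeneic explants ended at 9.72 and the syngeneic ones began at 10.46, with no overlap.

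The log2-fold change of *RT1-CE10* was -1.75 ± 0.45 (SD, n = 12 rats), with a standard error of 0.12 and an adjusted p of 5.01e-06 by limma over all genes. Fold changes are given here as allogeneic over syngeneic, so that a negative value means less signal in the explant labeled allogeneic. This direction follows the dye labels and is opposite to the one the study gives for the same comparison. With the sign turned, each lower value below would read as higher. The study's quantitative PCR on part of the same samples went with the study's direction for most genes tested. Its PCR of selected genes in independent explant assays went the same way in general. For *RT1-CE10* the PCR on the same samples gave a slight fall instead. Which direction holds was not tested here. On the linear scale the signal was 3.37-fold lower in the allogeneic explants.

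In single rats the *RT1-CE10* log2-fold change was -1.70, -2.02, -1.61 and -1.77 in rats 1 to 4, which shared the first slide. It was -1.80, -1.47, -2.09 and -2.56 in rats 5 to 8 on the second slide, and -2.20, -0.80, -1.45 and -1.52 in rats 9 to 12 on the third. Rat 8 had the largest fall and rat 10 the smallest. The slide means, -1.78, -1.98 and -1.49, were all far below 0. On the bright array of rat 10 the value was 0.07, and on the other array of that rat -1.66.

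**Figure D1:**
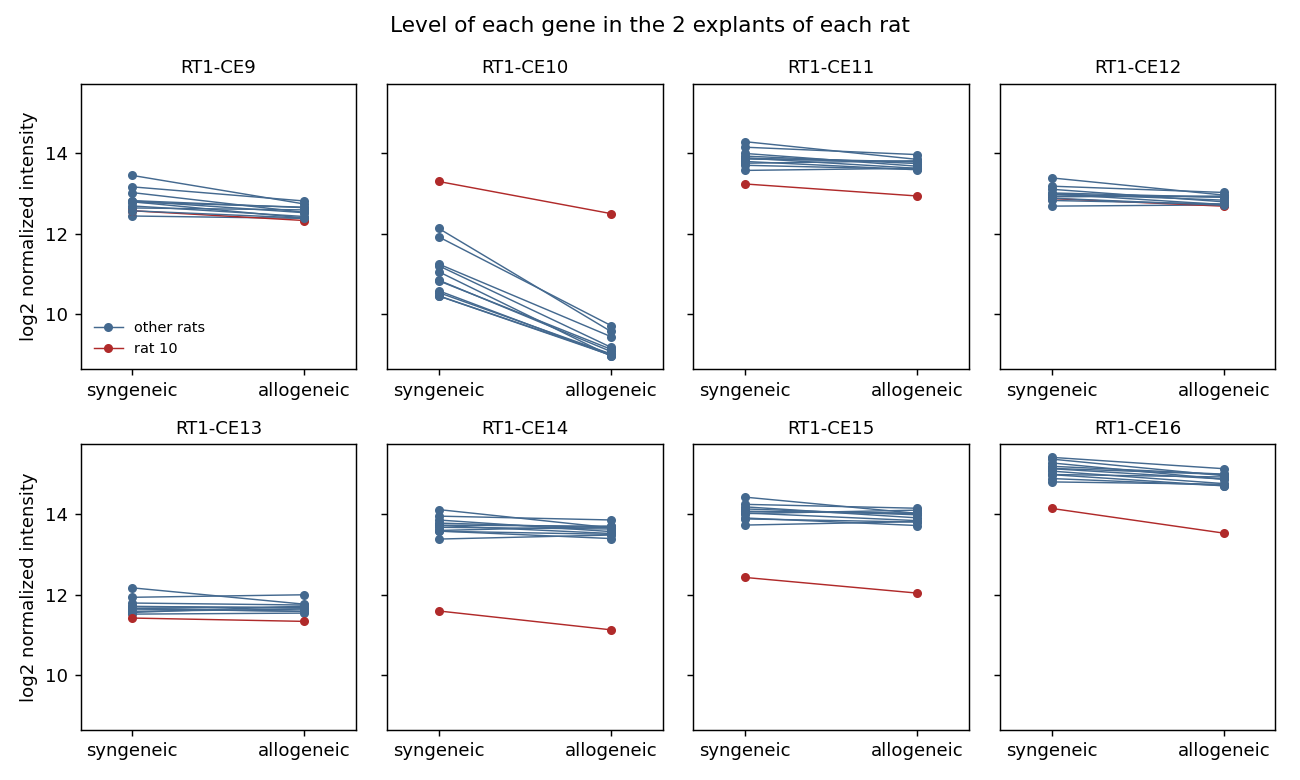
Normalized intensity (log2) of the 8 genes in the syngeneic and the allogeneic explant of each of 12 rats, with a line joining the explants of a rat. Every line falls for RT1-CE10, from a median of 10.96 to 9.11, and rat 10 lies apart from the other rats. Heights are not comparable between genes, since each rests on other probes.

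The other members changed little. Their log2-fold changes lay between -0.28 and -0.03, and the explant groups overlapped for each of them. Called at an adjusted p under 0.05, 6 of the 8 genes were lower, 0 were higher and 2 did not pass. Of all 7249 genes, 16.2% were called, 7.56% as lower and 8.64% as higher. The median log2-fold change of the 8 genes was -0.16, and that of all genes was 0.012.

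*RT1-CE9* came next after *RT1-CE10*. Its log2 intensity had a lowest value of 12.44, a median of 12.79 and a highest of 13.45 in the syngeneic explants, and 12.33, 12.53 and 12.82 in the allogeneic ones. The groups overlapped, although within each of the 12 rats the allogeneic explant was lower. The log2-fold change was -0.28 ± 0.19 (SD, n = 12; adjusted p = 3.45e-03 by limma), from -0.71 in rat 8 to -0.05 in rat 1.

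*RT1-CE16*, measured by the *RT1-Cl* probe and a probe of its own name, was also lower in 12 of 12 rats. Its log2 intensity was 14.14, 15.10 and 15.41 (lowest, median and highest) in the syngeneic explants and 13.53, 14.87 and 15.13 in the allogeneic ones, again with overlap. The log2-fold change was -0.27 ± 0.16 (SD, n = 12; adjusted p = 1.46e-03 by limma), from -0.61 in rat 10 to -0.06 in rat 6.

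*RT1-CE11* and *RT1-CE12*, both protein-coding class Ib genes in RefSeq, were lower by similar amounts. For *RT1-CE11* the syngeneic explants had log2 intensities of 13.24, 13.87 and 14.29 (lowest, median and highest) and the allogeneic ones 12.94, 13.72 and 13.97. The log2-fold change was -0.17 ± 0.15 (adjusted p = 0.0145 by limma, lower in 10 of 12 rats). For *RT1-CE12* the intensities were 12.69, 12.98 and 13.39 against 12.69, 12.82 and 13.03, and the log2-fold change was -0.16 ± 0.13 (adjusted p = 0.0122 by limma, lower in 10 of 12 rats). Rats 1 and 6 were the ones with values above 0 for both genes.

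*RT1-CE15* and *RT1-CE14* lay at the threshold, on either side of it. *RT1-CE15* had log2 intensities of 12.43, 14.05 and 14.42 in the syngeneic explants and 12.04, 13.95 and 14.15 in the allogeneic ones. Its log2-fold change was -0.14 ± 0.16 (adjusted p = 0.0479 by limma, lower in 10 of 12 rats). This call was lost when any one of 10 of the 12 rats was left out, all but rats 1 and 6, and without the bright array of rat 10 (-0.096, adjusted p = 0.163 by limma). *RT1-CE14* had intensities of 11.59, 13.70 and 14.11 against 11.13, 13.60 and 13.86, with a log2-fold change of -0.15 ± 0.19 (adjusted p = 0.0728 by limma), and passed the threshold without rat 1 or without rat 6. For both genes rat 10 gave the lowest intensity in either group.

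*RT1-CE13* had no shift that passed the test. Its log2 intensity was 11.42, 11.65 and 12.17 in the syngeneic explants and 11.34, 11.67 and 12.00 in the allogeneic ones, with overlap. The log2-fold change was -0.03 ± 0.14 (adjusted p = 0.613 by limma), below 0 in 7 of 12 rats, and it was 0.00053 without rat 8. This mean combines probes that moved in opposite directions, as described below.

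**Figure D2:**
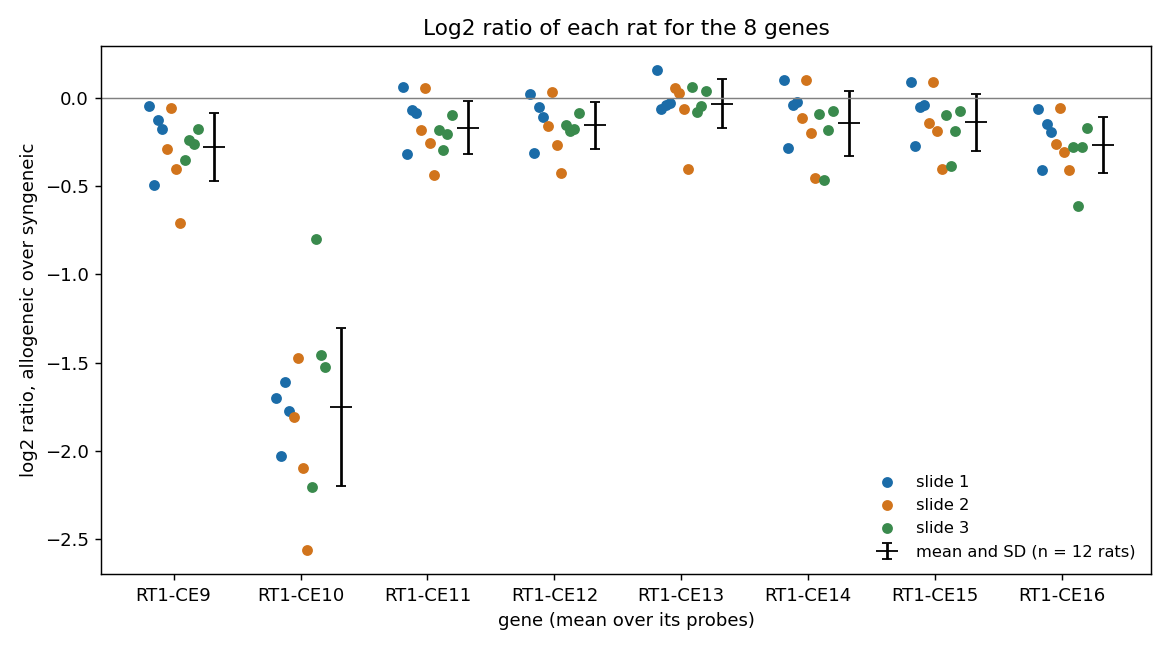
Log2-fold change (allogeneic over syngeneic) of each of the 8 genes in each of 12 rats as points, with the mean and SD. RT1-CE10 lies between -2.56 and -0.80, and the other 7 genes stay between -0.71 and 0.16.

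Differences between genes were taken within each rat and tested by an exact sign-flip permutation (2-sided, n = 12, adjusted over 28 pairs). In all 7 pairs with *RT1-CE10* the difference passed, at 1.47 to 1.72 on the log2 scale (adjusted p = 1.24e-03 for each, the smallest that 12 sign flips and this adjustment gave). *RT1-CE10* was lower than each other member in each of the 12 rats. In rat 10 the gap was smallest, with -0.80 for *RT1-CE10* and -0.61 for the next gene, and the rats otherwise had gaps of over 1 log2 unit.

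Among the other 7 genes, 14 of 21 pairs differed. In the order of the changes, *RT1-CE9* and *RT1-CE16* did not differ beyond their spread (difference -0.01, 95% interval -0.11 to 0.08). Both were lower than each of *RT1-CE11*, *RT1-CE12*, *RT1-CE14*, *RT1-CE15* and *RT1-CE13*. Within the set *RT1-CE11*, *RT1-CE12*, *RT1-CE14* and *RT1-CE15* no pair passed the test. The widest of these differences, between *RT1-CE11* and *RT1-CE15*, was -0.03 (95% interval -0.06 to -0.002, adjusted p = 0.0528 by exact permutation). *RT1-CE13* was higher than every other member, by 0.11 to 0.25 when *RT1-CE10* is left aside.

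The change of *RT1-CE10* across rats was set against the mean of the other 7 members. Pearson's r was 0.32 (permutation p = 0.31) and Spearman's rho 0.31 (permutation p = 0.33) over 12 rats, in the only relation of this kind that was computed. Without rats 10 and 8, the farthest from the median, r was 0.57, and with the slide means removed it was 0.37. A relation was therefore not detectable with 12 rats.

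At the level of probes, 20 of 34 were called lower, 0 higher and 14 did not pass. Of all 8453 probes, 17.3% were called, 8.48% as lower and 8.78% as higher. The log2-fold change was below 0 for 32 member probes and above 0 for 2, with a median of -0.16, against 0.011 over all probes. The number called lower was 13 without the bright array of rat 10, and 12 with the rat as a random replicate block over 24 arrays. Of all probes, 18.6% and 19.4% were called in these settings, in either direction. Many member probes share bases, so these counts are not counts of independent measurements.

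**Figure D3:**
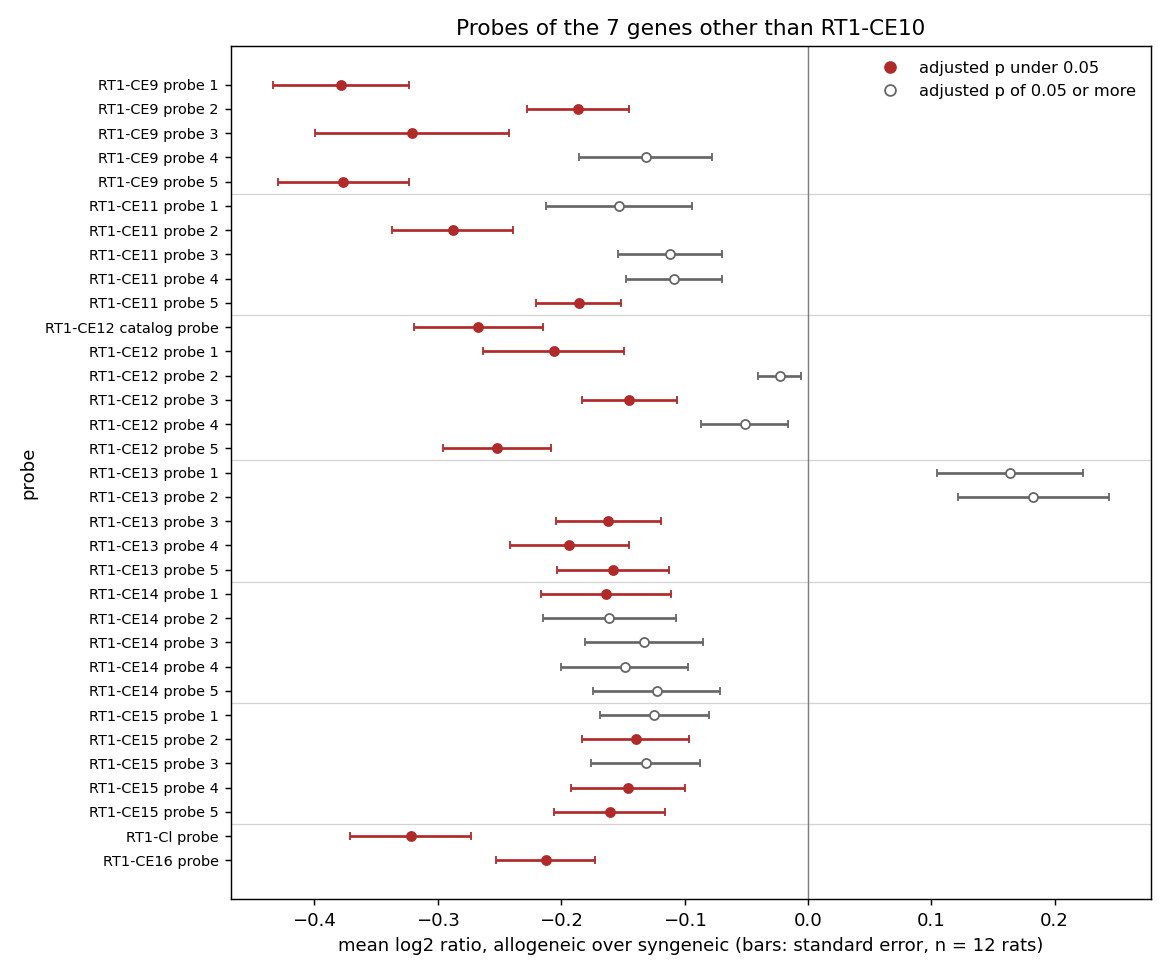
Mean log2-fold change (allogeneic over syngeneic) of member probes over 12 rats, grouped by gene, with bars as the axis names them. Points are filled where the adjusted p was under 0.05. Besides the RT1-CE10 probe, whose value was -1.75, 31 probes lie between -0.38 and -0.02, and 2 probes of RT1-CE13 lie above 0.

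The 3 probes with the shared 17-base end fell by similar amounts. The value was -0.38 for *RT1-CE9* probe 1, -0.29 for *RT1-CE11* probe 2 and -0.32 for the *RT1-Cl* probe (adjusted p = 6.07e-04, 1.61e-03 and 8.43e-04 by limma), each lower in 12 of 12 rats. *RT1-CE12* probe 2, without the run, was at -0.02 (adjusted p = 0.422 by limma), with a median log2 intensity of 8.60 in either group. The 3 probes with the run were far brighter, with syngeneic medians of 13.53, 14.04 and 15.15. Whether the missing run or the weak signal went with the lack of change was not tested. Whether the 3 probes with the run measured 1 common RNA was not tested either.

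Within *RT1-CE9*, probe 5 fell by 0.38 and probe 2 by 0.19, and both passed the test. Probe 3 stood at -0.32 (adjusted p = 0.0133 by limma), with its lowest value in rat 8. Probe 4 was at -0.13 (adjusted p = 0.116 by limma). Of 10 probe pairs of *RT1-CE9*, 6 differed by the exact sign-flip permutation (adjusted over the 66 pairs within genes), so the probes of this gene did not move alike. Probe 4 shared 38 consecutive bases with *RT1-CE12* probe 1, which was at -0.21.

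Within *RT1-CE11*, probe 5 fell by 0.19 (adjusted p = 3.02e-03 by limma), and probes 1, 3 and 4 were at -0.15, -0.11 and -0.11 and did not pass. Here 5 of 10 pairs differed, by up to 0.18. Within *RT1-CE12*, the catalog probe fell by 0.27 in 12 of 12 rats (adjusted p = 3.79e-03 by limma) and probe 5 by 0.25 (adjusted p = 1.86e-03 by limma), while probe 4 was at -0.05. For *RT1-CE12*, 9 of 15 pairs differed. The catalog probe shared 23 bases with *RT1-CE11* probe 3, marked in capitals.

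RT1-CE12 catalog probe: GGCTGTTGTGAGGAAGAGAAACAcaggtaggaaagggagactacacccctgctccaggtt

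The 5 probes of *RT1-CE14* lay between -0.16 and -0.12, with 1 called lower, and those of *RT1-CE15* between -0.16 and -0.12, with 3 called lower. Their near-identical probes gave near-identical values, since the largest difference within a gene was 0.04 for either, although 3 and 2 of 10 pairs passed the test. The 2 probes of *RT1-CE16* differed by 0.11 and both fell in 12 of 12 rats, the *RT1-Cl* probe by 0.32 and the *RT1-CE16* probe by 0.21.

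The probes listed for *RT1-CE13* split along the shared sequences shown above, and also by signal strength. In the syngeneic explants the median log2 intensity was 8.35 and 8.95 for probes 1 and 2. For probes 3, 4 and 5 it was 15.06, 13.53 and 12.58. Whether the split went with sequence or with signal strength was not tested. Probes 1 and 2 were at 0.16 and 0.18 (adjusted p = 0.0788 and 0.0585 by limma), above 0 in 9 and 10 of 12 rats. Probes 3, 4 and 5 fell by 0.16, 0.19 and 0.16 (adjusted p = 0.0193, 0.0149 and 0.0301 by limma). All 6 pairs between the 2 sets differed, by 0.32 to 0.38, and no pair within a set did. Without rat 8, whose values for probes 1 and 2 were both -0.36, these probes were at 0.21 and 0.23 and passed the test (adjusted p = 2.97e-03 and 1.87e-03 by limma), as they also did with the rat as a replicate block (adjusted p = 0.0177 and 5.59e-03 by limma).

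**Figure D4:**
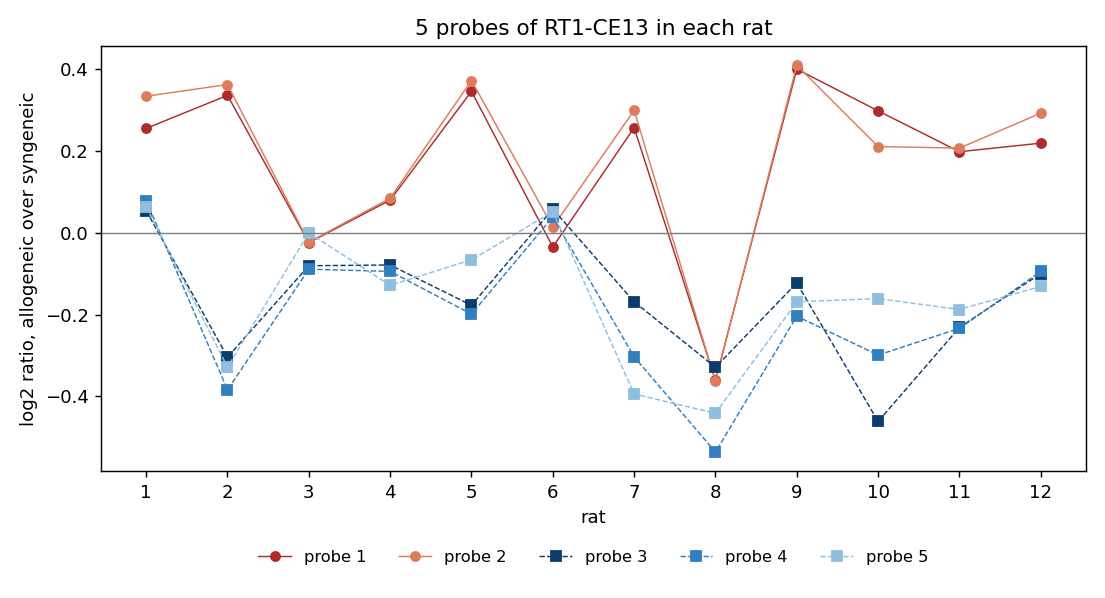
Log2-fold change (allogeneic over syngeneic) of the 5 probes listed for RT1-CE13 in each of 12 rats. Probes 1 and 2 lie above probes 3 to 5 in most rats, and rat 8 is below 0 for all 5 probes.

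The probes listed for *RT1-CE13* also shared sequence with the class Ib genes *RT1-O2* and *RT1-O3*. Probe 1 had 35 bases in common with a probe of *RT1-O2*, which was at 0.15 (adjusted p = 0.0627 by limma, lower in 2 of 12 rats). Probe 3 had 36 bases in common with probes of *RT1-O2* and *RT1-O3*, at -0.09 and -0.11, neither of which passed. Probe 5, which fell by 0.16, had 25 bases in common with another probe of *RT1-O2* and 22 with one of *RT1-O3*, and both of these were at 0.03 and did not pass. Shared sequence thus went with the same side of 0 in some pairs and not in others. With genes assigned by RefSeq transcript, a choice made after seeing the data, *RT1-CE13* would take the custom probes listed for *RT1-CE12* and be at -0.14 (adjusted p = 0.0205 by limma).

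Over all probe pairs of different members without *RT1-CE10*, 39 pairs shared a run of 20 or more bases and differed by a median of 0.037 in log2-fold change. The 423 pairs with shorter runs differed by a median of 0.106. These pairs share probes and rats, so the medians are a description only.

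The 2 dye orientations gave unequal values for every member. With the allogeneic sample in Cy5 the mean log2-fold change was -1.98 for *RT1-CE10* and between -0.41 and -0.12 for the others. With the allogeneic sample in Cy3 it was -1.52 for *RT1-CE10*, -0.15 for *RT1-CE9* and -0.12 for *RT1-CE16*. The remaining genes stood near 0 in that orientation, at -0.04 for *RT1-CE11*, -0.002 for *RT1-CE12*, and 0.05, 0.05 and 0.07 for *RT1-CE13*, *RT1-CE14* and *RT1-CE15*. As gene means, *RT1-CE9*, *RT1-CE10* and *RT1-CE16* were thus below 0 in both orientations. For *RT1-CE16* this rested on the *RT1-Cl* probe, at -0.39 in Cy5 and -0.26 in Cy3. The *RT1-CE16* probe itself was at -0.44 and 0.016. The small falls of *RT1-CE11*, *RT1-CE12* and *RT1-CE15* were seen in the Cy5 orientation and not in the other. The results above are means that hold both orientations of every rat equally. A dye effect of equal size on both arrays of a rat would cancel in them, but equal size was not tested. In rat 10 *RT1-CE10* was at 0.07 with the allogeneic sample in Cy5 and at -1.66 in Cy3. For *RT1-CE14* these values were -1.08 and 0.14.

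**Figure D5:**
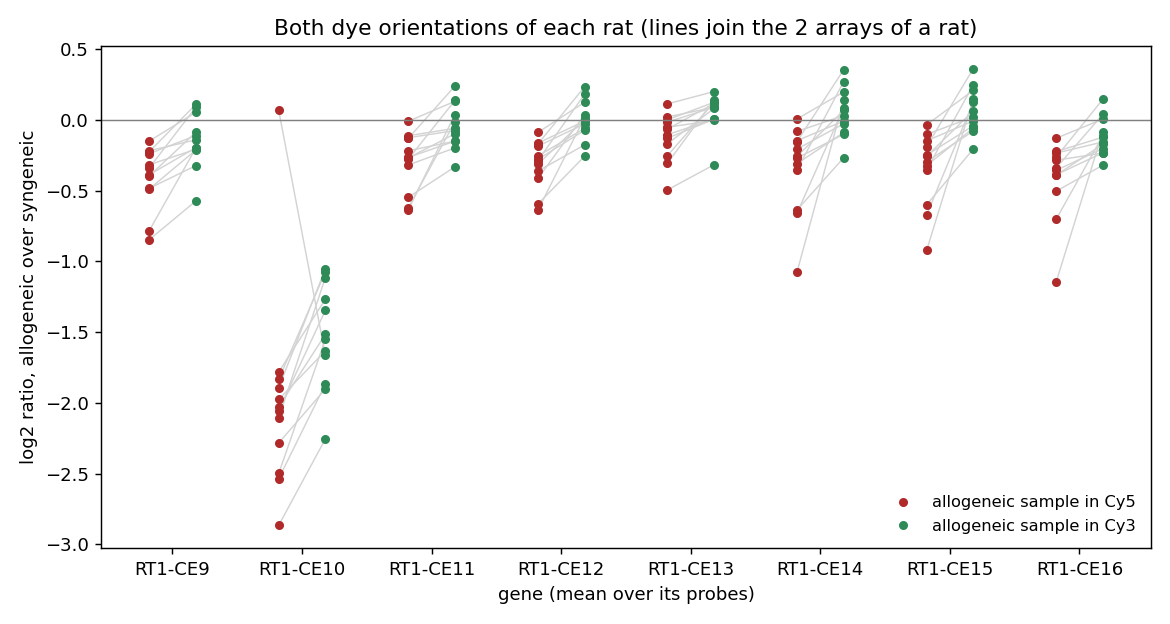
Log2-fold change (allogeneic over syngeneic) of the 8 genes in either dye orientation of the allogeneic sample (12 arrays in Cy5, 12 in Cy3). The mean of each gene is lower in the Cy5 orientation, and that of RT1-CE10, at -1.98 and -1.52, is far below 0 in both.

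Promoters of 6 members were found in RefSeq (build GRCr8, a window around each annotated start), those of *RT1-CE10*, *RT1-CE11*, *RT1-CE12*, *RT1-CE13*, *RT1-CE15* and *RT1-CE16*. They were searched on both strands for GGGATTCCC, a form of the NF-kappaB element known from class I promoters. It was found in 4 of the 6, against 122 of all 33469 promoters (0.365%) and 1 of 6 promoters of *RT1-CE1* to *RT1-CE8*, that of *RT1-CE4*. The windows are shown with the motif in capitals, since the same letters stand before genes whose signal changed by different amounts.

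RT1-CE10, chr20:3385147-3385187, minus strand: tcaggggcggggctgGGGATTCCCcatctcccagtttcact
RT1-CE11, chr20:3363346-3363386, minus strand: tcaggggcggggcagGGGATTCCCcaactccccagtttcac
RT1-CE13, chr20:3322898-3322938, minus strand: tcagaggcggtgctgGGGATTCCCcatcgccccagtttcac
RT1-CE16, chr20:3265548-3265588, minus strand: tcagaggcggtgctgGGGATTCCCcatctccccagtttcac

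The motif began 193 bases before the annotated start in *RT1-CE10*, 173 in *RT1-CE11*, 124 in *RT1-CE13* and 130 in *RT1-CE16*. By the study's names, the log2-fold changes of these genes were -1.75, -0.17, -0.03 and -0.27. The promoters carry RefSeq names, and the probes of the RefSeq *RT1-CE13* transcript, listed for *RT1-CE12*, gave -0.14. The *RT1-CE16* value includes the *RT1-Cl* probe, and the *RT1-CE16* probe alone was at -0.21. The genes without the exact letters, *RT1-CE12* and *RT1-CE15*, were at -0.16 and -0.14 by the study's names. Most probes behind the *RT1-CE12* value carry the transcript that RefSeq gives to *RT1-CE13*. The CCAAT box, which binds NF-Y, was found in 5 of the 6 promoters, all but that of *RT1-CE12*, against 37.5% of all promoters, and it did not overlap GGGATTCCC in the windows shown. GAAANNGAA, a simple form of the interferon-stimulated element, was in 0 of the 6 and in 9.71% of all promoters. Other forms of that element were not searched, so the count does not show whether these promoters hold one. A match is a description of the letters and says nothing of a factor's binding.

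The closest relatives of the members moved mostly downward too. Of the class Ib genes *RT1-CE1* to *RT1-CE8*, 7 of 8 were called lower and 0 higher, with a median log2-fold change of -0.25. Among all genes 7.56% were called lower. *RT1-CE3* (-0.45), *RT1-CE8* (-0.38), *RT1-CE5* (-0.27) and *RT1-CE2* (-0.26) fell most, followed by *RT1-CE7* (-0.23), *RT1-CE4* (-0.22) and *RT1-CE1* (-0.20), whereas *RT1-CE6* was at -0.08 and did not pass. Of 4 class Ia genes measured, 3 were lower, *RT1-Aw2* (-0.64), *RT1-A2* (-0.41) and *RT1-A1* (-0.33). *RT1-A3*, a probe of which shares 22 bases with the *RT1-CE10* probe, was at -0.16 (adjusted p = 0.164 by limma). The lowest of these values, -0.64, compares with -1.75 for *RT1-CE10*.

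Of 16 listed genes of class I antigen presentation, 12 were measured, 5 were called lower (7.56% among all genes) and 0 higher, with a median of -0.17. Those that fell were *Psmb8* (-0.42), *Psmb10* (-0.33) and *Psmb9* (-0.19), subunits of the immunoproteasome that cuts peptides for class I, *Tap2* (-0.21), a subunit of the peptide transporter, and *Calr* (-0.14), a chaperone of class I assembly. *B2m*, the light chain of all class I molecules, was at 0.002, and *Tap1* at -0.23 did not pass (adjusted p = 0.0697 by limma). Of 12 measured genes of interferon-gamma signaling, *Socs1*, an inhibitor of the pathway, was lower (-0.35), the chemokine gene *Cxcl9* was higher (0.34), and the median was 0.002.

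Some markers of T cells and NK cells were also lower in the allogeneic explants, and most did not pass the test. Over all genes, 7.56% were called lower and 8.64% higher. Of 7 T cell genes measured, 3 were lower, *Cd5* (-0.97), *Cd8a* (-0.32) and *Cd8b* (-0.49), and 0 higher. *Cd247*, which encodes the CD3 zeta chain, was at -0.07 and did not pass, whereas the study's PCR gave its RNA as higher in allogeneic explants. The summed T cell level, as linear normalized intensity, was 2335 to 6044 in the syngeneic and 1838 to 4086 in the allogeneic explants. Of 7 NK cell genes, *Gzmb* (-0.69), *Nkg7* and *Klrb1a* were lower, with sums of 1666 to 2407 and 1587 to 2181. Of 3 B cell genes none was called (sums 345 to 2042 and 334 to 1789). Of 4 macrophage genes *Itgam* (-0.60) and *Csf1r* (-0.22) were lower and *C1qa* (0.21) higher, with sums of 7369 to 18504 and 8363 to 18481. The part of these cells in the signal of the class Ib genes was not tested.

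Genes with a pattern over the 12 rats most like that of *RT1-CE10* were sought among 6126 genes well above background, by Pearson correlation of log2-fold changes. Among the most similar were *Or27* (0.93), *Trim31* (0.92), *Akap3* (0.90) and *Or6z5* (0.90). Without rats 10 and 8 these values were 0.88, 0.75, 0.87 and 0.63, so that the likeness rested in part on these 2 rats. The log2-fold changes of *Or27*, *Trim31* and *Or6z5* lay between -0.03 and 0.01, and none of these genes passed the test. *Akap3*, at -0.093, did pass (adjusted p = 0.0105 by limma).

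For the mean of the other 7 members the most similar genes were *Junb* (0.95), *RT1-CE7* (0.94), *RT1-O3* (0.94), *Nfkb2* (0.93) and *RT1-M4* (0.92). *RT1-CE7*, *RT1-O3* and *RT1-M4* are class Ib genes, *Junb* encodes an AP-1 subunit and *Nfkb2* an NF-kappaB subunit. Without rats 8 and 1 the correlations were 0.93, 0.89, 0.89, 0.91 and 0.85. They are descriptions over 12 rats that share arrays and scaling, and the genes were picked for high values. *Junb* itself was at -0.22 and did not pass the test (adjusted p = 0.255 by limma).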

How the data were processed

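The RNA of the allogeneic and syngeneic explants of 12 rats was compared on 24 arrays, with rat and dye orientation taken from the sample labels. The authors deposited the mean spot and median background intensities of each array, extracted per the file headers by Feature Extraction 9.5.1.1 (the methods name an earlier version), and a series table of log2 ratios, which the authors had normalized and which correlated positively with the turned ratio on all 24 arrays, so that its direction was taken as allogeneic over syngeneic. The centring and background treatment of that table are not stated, and its column medians lay between -0.027 and 0.022. The labels name limma for the processing, and another amplification kit than the methods.

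Background was corrected by normexp (offset 50) and dyes by loess within arrays in R 4.3.3 with limma 3.58.1, leaving out control and outlier spots. Ratios of swapped arrays were turned, then averaged per probe and over both arrays of each rat. These log2 ratios were tested against 0 by limma with Benjamini-Hochberg adjustment over 8453 probes or, after averaging the probes of a gene, 7249 genes. Both samples of a rat lie on the same arrays, which makes every comparison a paired one. Statistics were tested on simulated data. Alternatives concerned background, normalization, orientation, dim probes, outliers, slide, test, replicate block, series table, the combination of probes and left-out rats. The number of arrays limits the precision, and nothing says whether p-values measure more than the spread between these rats.

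Named were all members with their probes, the marker and pathway lists (T cells, NK cells, B cells, macrophages, keratinocytes, class I antigen presentation, interferon-gamma signaling, class Ia genes, *RT1-CE1* to *RT1-CE8*), and the 5 genes most similar to *RT1-CE10* and to the mean of the others, of which 1 is not reported here. Members and lists were chosen with earlier results of these data known. *RT1-CE14*, not among the 7 genes for which the tests between genes were planned, met the rule and raised the pairs from 21 to 28. Only probe symbols were taken from the study's probe list. Sequences come from the array files and RefSeq.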

Additional observations from a re-analysis of the deposited data

Results flagged for a closer look

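For all 8 genes the log2-fold change (allogeneic over syngeneic) differed between the 2 dye orientations of the same RNA samples by an exact sign-flip permutation over 12 rats (2-sided, adjusted over the 8 genes). The difference, Cy5 minus Cy3 orientation of the allogeneic sample, was -0.26 for *RT1-CE9*, -0.25 for *RT1-CE11*, -0.31 for *RT1-CE12*, -0.18 for *RT1-CE13*, -0.40 for *RT1-CE14*, -0.41 for *RT1-CE15* and -0.29 for *RT1-CE16*, each below 0 in 12 of 12 rats (adjusted p = 5.58e-04 by exact permutation). For *RT1-CE10* it was -0.46, below 0 in 11 of 12 rats (adjusted p = 0.0493 by exact permutation), and -0.66 without rat 10, whose bright array was the exception. Over all genes the median of this difference was 0.021 and its median size 0.107, and 26.4% of genes differed by more than 0.2 in size. The test was run on the 8 members only. The share of all genes that it would call is not known here, so the count does not set the members apart. The cause of the difference was not tested.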

How the results depend on the processing

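*RT1-CE10* kept its direction and call under every alternative run, from -1.98 (Cy5 orientation) to -1.52 (Cy3 orientation), and from -1.84 to -1.68 with 1 rat left out. *RT1-CE9* and *RT1-CE16* were also called throughout. With 1 rat left out, the probes called lower numbered 14 to 27, those called higher 0 to 2, and the genes called lower 5 to 7. Of all probes, 13.7% to 24.7% were called in these fits, in either direction. The log2-fold change then ranged from -0.051 to 0.00053 for *RT1-CE13*, from -0.17 to -0.12 for *RT1-CE14* and from -0.16 to -0.12 for *RT1-CE15*, and the pairs called from 21 to 25 between genes and from 29 to 36 between probes.

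*RT1-CE15* lost its call with the slide as a block, by the mixed-effects ANOVA of the methods and by the exact Wilcoxon signed-rank test (-0.14 in each), in the authors' series table (-0.14), with median centring (-0.25) and without the bright array of rat 10 (-0.096). Without that array, an alternative chosen after seeing the data, 13 probes were lower and 1 higher. With median centring 2 probes were higher and *RT1-CE12* probe 2 was at 0.0070. Of all probes, 18.6% were called without that array and 14.3% with median centring. *RT1-CE13* was called at -0.12 with the median over its probes and at -0.14 with RefSeq names.

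In the Cy5 orientation alone, 31 probes were lower and 3 higher, *RT1-CE14* was called (-0.35) and *RT1-CE12* probe 2 was at 0.073. Of all 8453 probes, 31.5% were called in this orientation, in either direction. In the Cy3 orientation alone, 8 probes and 3 genes were lower and 1 probe was higher, *RT1-CE12* probe 4 at 0.21. Of all 8453 probes, 29.6% were called in this orientation, so the member probes did not exceed that share. There *RT1-CE11* (-0.044) and *RT1-CE12* (-0.0016) were not called, and *RT1-CE13* (0.055), *RT1-CE14* (0.054) and *RT1-CE15* (0.065) lay above 0. So did *RT1-CE9* probe 2 (0.011), *RT1-CE11* probes 3 and 4 (0.066 and 0.061), *RT1-CE12* probes 3 and 5 (0.0024 and 0.073), *RT1-CE13* probes 3 and 5 (0.014 and 0.026), *RT1-CE14* probes 1 to 5 (0.022, 0.042, 0.073, 0.074 and 0.060), *RT1-CE15* probes 1 to 5 (0.098, 0.065, 0.066, 0.030 and 0.065) and the *RT1-CE16* probe (0.016).

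The pairing by rat is part of every fit, because both samples share the arrays. With the rat as a random replicate block over 24 arrays (consensus correlation 0.25 over probes), 12 probes were lower, 2 were higher, and *RT1-CE15*, at -0.14, was not called. Of all probes, 19.4% were called in this fit. The block changed no other gene's call. The causes of these changes were not tested. All member probes were well above background, but whether weak or saturated signal narrowed any ratio was not tested. The number of rats set a limit as well.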
